A study of Mus musculus with 5 samples.

Results

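The genes described here are the ubiquitin ligases, ubiquitin-conjugating enzymes, deubiquitinases and proteasome subunits whose symbols match a fixed pattern of family names (Ube, Ubr, Trim, Fbxo, Fbxl, Fbxw, Usp, Rnf, Asb, Klhl, Kbtbd, Cul, Herc, Hectd, Huwe1, Nedd4, Smurf, Itch, Wwp, Otud and Psm). They were 104 of the 4743 genes with values. RNA was sequenced at E15.5 from the forelimb muscle tissue of C57BL/6 mice, with 3 libraries from Noggin-deficient embryos and 2 from wild type controls. Noggin is a secreted antagonist that keeps bone morphogenetic proteins (BMPs) from their receptors, and the series title concerns the balance of BMP and biomechanical cues around developing muscle. The sources used here give neither the allele behind the Noggin deficiency nor the number of embryos behind each library, nor litter, sex or batch. The spread that enters each p-value is that between these libraries only, and it may be technical.

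Ubiquitin is attached to proteins by a chain of enzymes. An activating enzyme (E1) passes it to a conjugating enzyme (E2), and a ligase (E3) brings the E2 and the substrate together. RING, TRIM and U-box ligases and the cullin complexes bridge the E2 to the substrate, and HECT ligases first take the ubiquitin onto themselves. F-box, ASB and BTB-Kelch proteins are the substrate receptors of cullin complexes. Deubiquitinases remove ubiquitin, and the proteasome degrades many of the tagged proteins. In skeletal muscle, members of the ASB, BTB-Kelch and TRIM families take part in building the sarcomere and in its turnover.

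The deposited values are a normalised, non-negative expression signal in a unit that is not named, and their read depth is unknown. Levels are therefore compared here between libraries for 1 gene and not between genes. The tables hold genes that appear chosen for differing between these same samples. Of 3913 genes tested with limma, 98% were called at an adjusted p under 0.05, 37.9% higher and 60.1% lower in the Noggin-deficient libraries, and for 98.2% of the 4743 the groups had no overlapping libraries (41.2% higher, 57.1% lower). A call on a member is thus no independent evidence that it changed, and what can be read from the members is their direction, the size of the difference and how both depend on the processing. The deposited values summed to 92210 to 93695 in the Noggin-deficient and to 100792 to 102783 in the wild type libraries. Rescaling the libraries by median-of-ratios factors moved the median log2 change of all tested genes by 0.25, and by upper-quartile factors by 0.19, so the sign of a fall smaller than these shifts depends on the scaling.

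Most members were lower in the Noggin-deficient libraries. Of the 104 members, 80 had a lower and 24 a higher mean log2 value, and in none of the 104 did a library of one group lie among those of the other. Testing required 2 or more libraries with a value of 0.5 or higher, which 89 members met and 15 did not. Of the 89, 85 met it with libraries of both groups, and 4 (Asb12, Asb18, Rnf225 and Usp18) met it only through the group in which they were high. All 89 were called, 71 lower and 18 higher, which at the background of 98% says nothing particular about them. The median log2 change of the tested members was -0.35, against -0.28 for all tested genes. Lower members made up 79.8% of the tested members and 62% of all tested genes. Against a 1.5-fold change, 5 members passed, all lower (Asb12, Rnf222, Trim29, Usp2 and Klhl31), where 14.5% of all tested genes passed (4.22% higher, 10.3% lower).

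**Figure D1:**
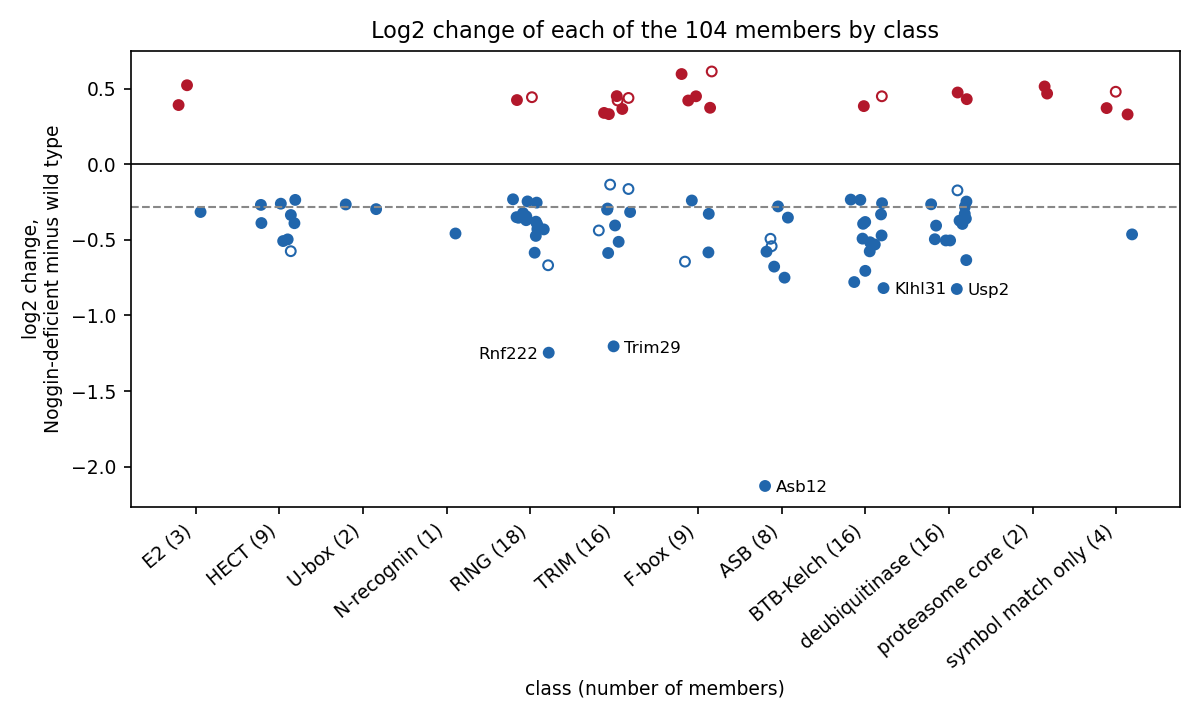
Log2 change (vertical axis, Noggin-deficient minus wild type) of each of the 104 members, by class on the horizontal axis; filled points were tested, open points had values too low to test, red is higher and blue lower, and the dashed line is the median of all 3913 tested genes at -0.28. All HECT and ASB members lie below 0, the F-box genes lie on both sides, and Asb12 has the lowest value at -2.13.

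Long transcripts were lower more often than short ones across the whole table, and the members followed this. In the shortest eighth of all tested genes, by the longest annotated transcript of each gene, 67.1% were higher in the Noggin-deficient libraries, and in the longest eighth 6.4%. Of the 20 members longer than 7000 bases, 19 were lower and 1 was higher. The 80 lower members had a median length of 4642 bases and the 24 higher ones of 2779. Across the 104 members, length and log2 change had a Spearman correlation of -0.18, and across 3737 tested genes of -0.27, both given as descriptions over genes of the same 5 libraries. With a smooth trend on length removed over all tested genes, 64% of the tested members were lower, against 51.9% of all tested genes. With median-of-ratios scaling these shares were 70.8% and 55.3%. Members called numbered 48 with that scaling (18 higher, 30 lower), where 70.5% of all tested genes were called (38% higher, 32.5% lower). They numbered 59 without the length trend (18 higher, 41 lower), where 77.4% of all tested genes with a length were called (39% higher, 38.4% lower). Of the 89 tested members, 41 kept both their call and their sign under median-of-ratios and upper-quartile scaling and without the length trend, 24 lower and 17 higher (27% and 19.1% of the members), where 29.1% of all tested genes with a length kept a lower and 37.1% a higher call (66.2% in all). Among the 14 tested muscle-enriched genes described next, 9 kept theirs, Asb12 and Asb18 included.

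**Figure D2:**
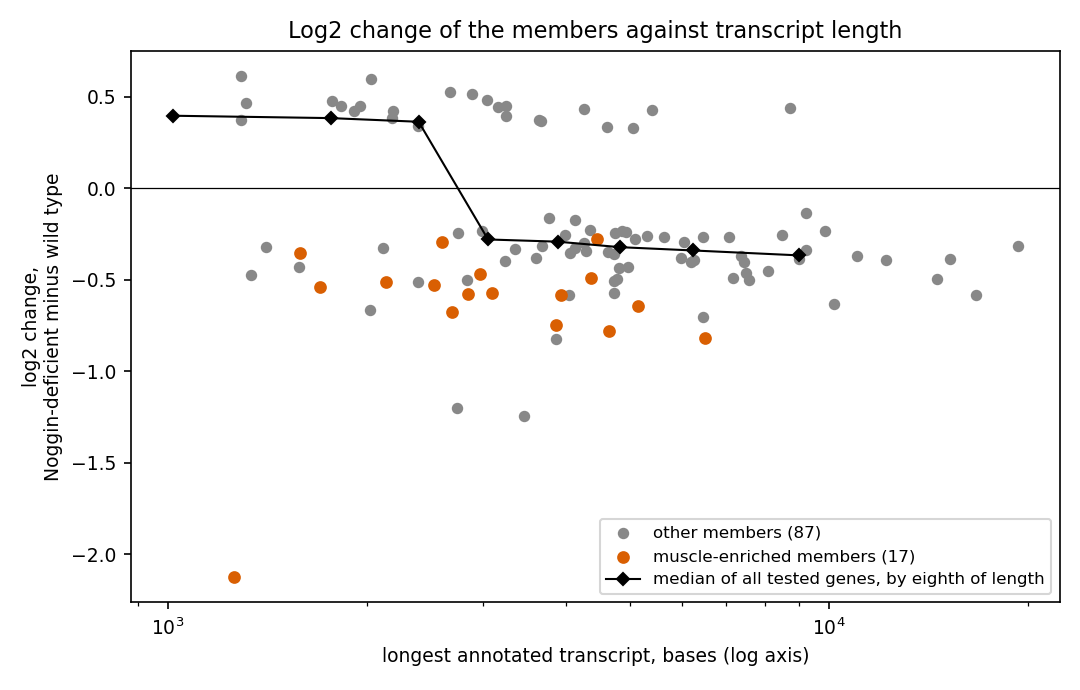
Log2 change of the members (vertical axis) against the length of the longest annotated transcript in bases (horizontal log axis), with muscle-enriched members in orange, other members in grey and the medians of all tested genes by eighth of length as black diamonds. The 17 muscle-enriched members lie below 0 at every length, including lengths at which the median of all genes is above 0.

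Every gene with values on a list here called muscle-enriched was lower in the Noggin-deficient libraries. This list holds named Trim, Fbx, Klhl and Kbtbd genes known from striated muscle. It also holds every Asb gene, taken by symbol and not by its level in muscle. The list was written with earlier results of these data known. Of its 17 genes with values, 17 were lower, 14 were tested and 14 were called lower, where 60.1% of all tested genes were called lower. The median log2 change of the 14 was -0.58 (-0.28 over all tested genes). Asb12 and Asb18, counted among the 14 and in this median, entered the test only through the wild type libraries in which they were high. None of the 14 turned in sign with median-of-ratios scaling, where the median was -0.32, or without the length trend, where it was -0.51. Trim54, Trim63, Fbxo30, Fbxo32, Klhl33, Klhl34, Klhl38 and Klhl40 were not analysed here.

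Among the Kelch proteins, Klhl41 stabilises nebulin in the thin filament, and human mutations in it cause nemaline myopathy. Its values were 58.8, 59.5 and 59.1 in the Noggin-deficient and 81.3 and 90 in the wild type libraries. Every Noggin-deficient library thus lay below both wild type libraries, by a difference of -0.53 in log2 (SE 0.042, adjusted p = 1.8e-05 by limma). Klhl31, a muscle Kelch protein, stood at 6.53, 6.71 and 6.82 in the Noggin-deficient and 11.9 and 12 in the wild type libraries. The groups stood well apart, at a difference of -0.82 in log2 (SE 0.038, adjusted p = 1.3e-06 by limma), and this gene also passed against a 1.5-fold change (adjusted p = 0.002). Klhl30 stood at 5.18, 5.22 and 5.43 in the Noggin-deficient and 8.05 and 7.93 in the wild type libraries, a difference of -0.58 in log2 (SE 0.042, adjusted p = 1.2e-05 by limma). Kbtbd12 was at 0.53, 0.53 and 0.49 in the Noggin-deficient and 1.06 and 1.07 in the wild type libraries, a mean ratio of 0.485 on the unlogged scale and a log2 change of -0.78 (limma adjusted p = 0.00011). Kbtbd13, another nemaline myopathy gene, was at 0.87, 0.75 and 0.68 in the Noggin-deficient and 1.18 and 1.13 in the wild type libraries. Its difference of -0.47 was -0.25 with median-of-ratios scaling, where the call ended (adjusted p = 0.063).

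Trim72, also called MG53, takes part in repair of the muscle cell membrane. Its values were 35.9, 36.1 and 35.1 in the Noggin-deficient and 51.2 and 50.9 in the wild type libraries. All Noggin-deficient libraries were below the wild type ones (log2 change -0.51, SE 0.027, limma adjusted p = 2.3e-06). Trim55, or MuRF2, is a RING ligase bound to the sarcomere. It had 21.6, 21.5 and 21.5 in the Noggin-deficient and 27 and 25.9 in the wild type libraries. That smaller difference of -0.29 was -0.02 with median-of-ratios scaling, where the call ended (adjusted p = 0.53). Fbxl22, an F-box protein of the Z-disc, had 4.53, 4.26 and 4.35 in the Noggin-deficient and 6.86 and 6.51 in the wild type libraries and a difference of -0.58 in log2 (SE 0.050, adjusted p = 2.4e-05 by limma). Fbxo40, a muscle F-box protein that targets the insulin receptor substrate IRS1, was too low to test, at 0.3, 0.18 and 0.28 in the Noggin-deficient and 0.47 and 0.6 in the wild type libraries.

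The ASB proteins join an ankyrin-repeat substrate receptor to a SOCS box that binds a cullin complex. All 8 with values were lower in the Noggin-deficient libraries, where 58.3% of all listed genes were lower. The median log2 change was -0.63 over the 6 tested and -0.56 over the 8. Asb12 and Asb18, among the 6, entered the test only through the wild type libraries. With a value of at least 2 required, which only Asb2 and Asb13 met, the median was -0.48. Asb12 differed more than any other member. It was at 0.09, 0.13 and 0.05 in the Noggin-deficient libraries and at 1.16 and 1.3 in the wild type libraries. The mean ratio was 0.0732 and the log2 change -2.13 (SE 0.14, limma adjusted p = 5.9e-06, and 7.1e-05 against a 1.5-fold change). Asb12 entered the test only through its wild type values. The log2 change of Asb12 depended on the pseudocount, since its Noggin-deficient values lie below 0.25, and was -1.03 with a pseudocount of 1 and -3.23 with 0.05. With either wild type library left out, too few libraries remained at 0.5 or higher for it to be tested.

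Asb2, which directs filamins to degradation during muscle differentiation, had 10.3, 10.4 and 10.4 in the Noggin-deficient and 16.7 and 16.8 in the wild type libraries. The libraries of each group lay close together and the groups apart (log2 change -0.68, SE 0.031, limma adjusted p = 1.3e-06). Asb18 had 0.38, 0.29 and 0.28 in the Noggin-deficient and 0.7 and 0.7 in the wild type libraries and a difference of -0.75 in log2 (SE 0.12, adjusted p = 0.00053 by limma), and it too entered the test only through its wild type values. Asb16 was at 1.2, 0.73 and 1.26 in the Noggin-deficient and 1.66 and 1.69 in the wild type libraries, with 1 Noggin-deficient library well below the other 2. Its call (log2 change -0.58, adjusted p = 0.015) ended without wild type replicate 1 (-0.59, adjusted p = 0.054), without wild type replicate 2 (-0.57, adjusted p = 0.061) and with median-of-ratios scaling (-0.35, adjusted p = 0.13). Asb5, expressed in muscle satellite cells, was at 0.99, 0.78 and 1.08 in the Noggin-deficient and 1.34 and 1.21 in the wild type libraries, a gap that is small beside the spread of the Noggin-deficient libraries. Its call at -0.35 (adjusted p = 0.024) ended without wild type replicate 1 (-0.29, adjusted p = 0.13) and with median-of-ratios scaling (-0.13, adjusted p = 0.4). Asb13 was at 3.87, 3.53 and 3.72 in the Noggin-deficient and 4.62 and 4.48 in the wild type libraries, and its difference of -0.28 was -0.02 with median-of-ratios scaling (adjusted p = 0.77) and -0.07 without the length trend (adjusted p = 0.28). Asb11, at 0.22, 0.06 and 0.14 in the Noggin-deficient and 0.29 and 0.33 in the wild type libraries, and Asb15, at 0.04, 0.01 and 0.02 in the Noggin-deficient and 0.16 and 0.11 in the wild type libraries, were too low to test.

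**Figure D3:**
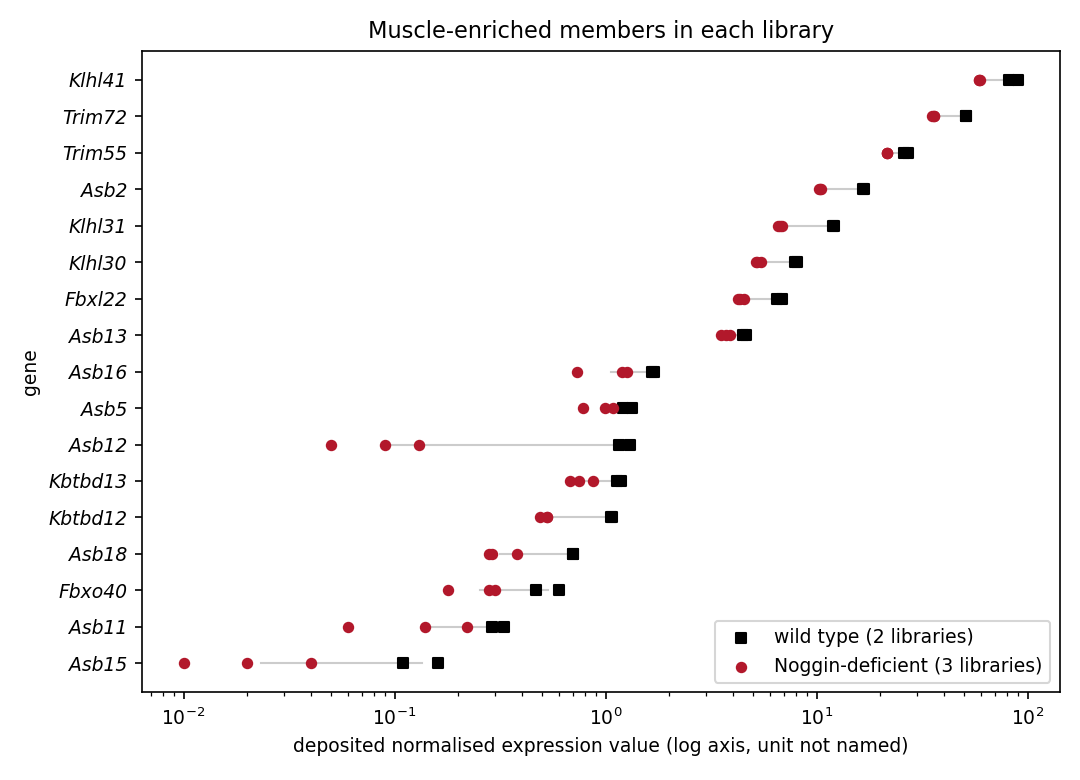
Deposited expression value (horizontal log axis, unit not named) of the 17 muscle-enriched members in each library, with red circles for the 3 Noggin-deficient and black squares for the 2 wild type libraries and a grey line between the group means. In every row the red points lie left of the black ones, and the gap is widest for Asb12.

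Markers of the muscle fibre were lower in the same libraries. Of 30 myofibre markers, such as myosins, troponins and Ckm, 23 had values, of which 22 were lower and 1, Actn3, was higher, with none listed at 0. Their summed level ran from 4791 to 5019 in the Noggin-deficient and from 6946 to 7077 in the wild type libraries. In bulk tissue, fewer cells of a type and less RNA per cell cannot be told apart, and the part of the fibre content in the values of the muscle-enriched members was not tested. The 4 myogenic regulators with values (Myf6, Mef2a, Mef2c and Mef2d, of 11) were lower as deposited. Mef2c was at -0.29, and at -0.02 with median-of-ratios scaling and 0.02 without the length trend. In the same settings Mef2a went from -0.42 to -0.15 and -0.14, and Mef2d from -0.55 to -0.28 and -0.28. Myf6 was at -0.92, -0.65 and -1.03.

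Set against the mean of these markers, most muscle-enriched members lay within 0.35 of it on the log2 scale. The mean log2 change of the 22 tested myofibre markers was -0.63, with single markers from -1.18 to 0.70. The upper end is Actn3 alone, the 1 marker that rose, and the next marker below it, Myl1, was at -0.28. The 87 members outside the muscle list ran from -1.25 to 0.61. Lying inside the marker range, as 16 of the 17 did, therefore does not show that a member followed the markers. The mean log2 level of the markers in the same library was then subtracted. After this, 6 of the 17 members remained lower and 11 were higher in the Noggin-deficient libraries. This split rests on the pseudocount of 0.25, which makes the falls of low genes too small. Asb11 and Asb15, among the 11, had mean ratios of 0.452 and 0.173 on the unlogged scale. Whether the split holds at another pseudocount was not tested. Whether the groups were apart on this scale was not counted over all genes, so it is given below for single members as a description only. Asb12 lay outside the marker range at the pseudocount of 0.25, on which all these relative values rest. There it was 1.5 lower than the mean of the markers on the log2 scale. On that relative scale its values ran from -7.42 to -7.14 in the Noggin-deficient and from -5.83 to -5.72 in the wild type libraries. Klhl31 was 0.19 and Kbtbd12 0.15 lower than the mean of the markers, and both kept the groups apart. The log2 change of Kbtbd12 itself was -0.78, but -0.45 with a pseudocount of 1 and -0.98 with 0.05. Klhl41 and Trim72 were 0.10 and 0.12 higher relative to the mean of the markers. Trim55 was 0.34 and Asb13 0.35 higher relative to it, again with the groups apart. These 2 genes thus fell by less than the mean of the fibre markers, but not by less than every marker, since Myl1 was at -0.28 and Actn3 rose.

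**Figure D4:**
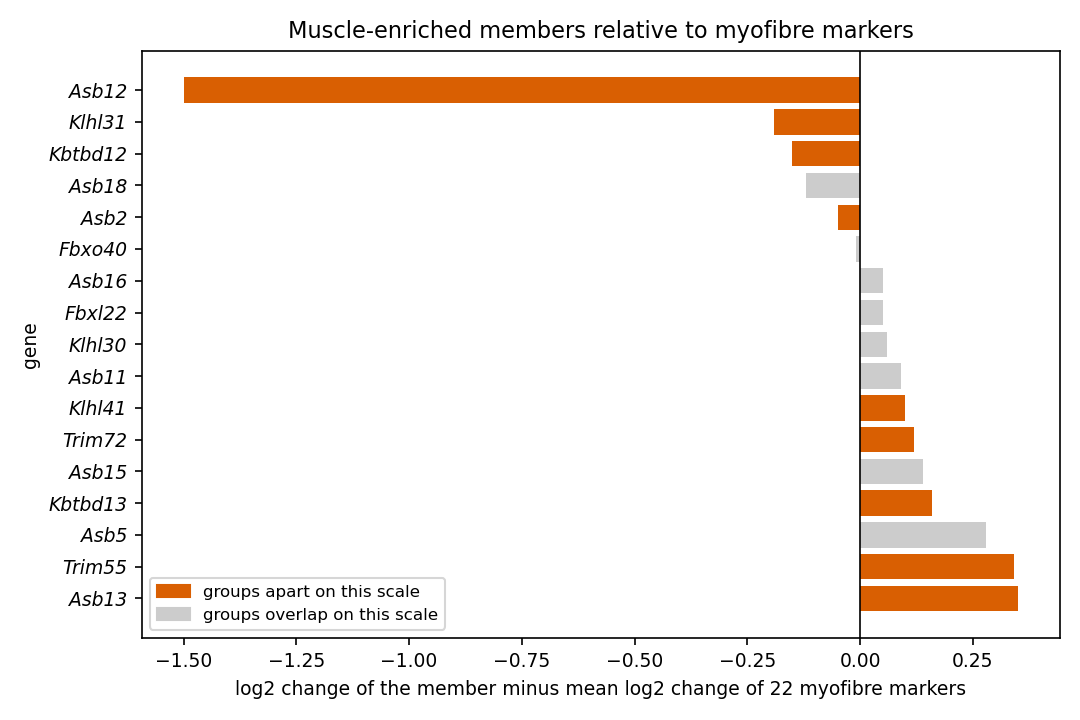
Log2 change of each muscle-enriched member minus the mean log2 change of 22 myofibre markers (horizontal axis), with orange bars where the libraries of the groups do not overlap on this scale and grey bars where they do. Most bars lie within 0.35 of 0, and that of Asb12 reaches -1.5.

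The promoters of the muscle-enriched members were also searched for short sequences. Their list was drawn as genes known from striated muscle and every Asb gene. Of the 87 other members, to which they are compared, 63 were lower as well. The frequency of sites for muscle factors in this list therefore cannot be read as bearing on the fall, and a link between the 2 was not tested. RefSeq promoter windows (GRCm38.p6, 250 bases before to 50 after the start of the gene, both strands searched) were matched by symbol for 84 of the 104 members and for 15 of the 17 muscle-enriched ones. A match to the site of MEF2, a family of muscle transcription factors, stood in 7 of 19 windows of the muscle-enriched members (36.8%), in 2 of 96 windows of the other members (2.08%) and in 3.19% of all 32851 windows. The E-box CAGCTG, of the type bound by myogenic basic helix-loop-helix factors, stood in 7 of the same 19 windows (36.8%), in 20 of 96 (20.8%) and in 16.3% of all windows. The 19 windows belong to 15 genes, of which 7 had a MEF2 match and 6 a CAGCTG. Other short sequences were searched too. In the 19 windows and in all windows, the CArG box stood in 15.8% and 1.63%, and CANNTG in 94.7% and 72.3%. For GGCGCC these shares were 5.26% and 11.9%, for CATTCC 5.26% and 14.7%, and for TGACTCA 0% and 5.2%. A match is a description of the letters and does not show that a factor binds there. Below are 4 of the 7 windows with a MEF2 match, those of the tested genes whose call held with both scalings and without the length trend, written 5′ to 3′ with the match in capitals.
Klhl41: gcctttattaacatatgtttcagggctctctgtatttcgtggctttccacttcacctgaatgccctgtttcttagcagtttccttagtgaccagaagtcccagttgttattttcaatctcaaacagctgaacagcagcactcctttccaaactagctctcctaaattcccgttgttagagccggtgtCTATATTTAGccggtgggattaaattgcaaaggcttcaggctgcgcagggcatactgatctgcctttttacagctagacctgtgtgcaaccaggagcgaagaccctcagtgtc
Asb12: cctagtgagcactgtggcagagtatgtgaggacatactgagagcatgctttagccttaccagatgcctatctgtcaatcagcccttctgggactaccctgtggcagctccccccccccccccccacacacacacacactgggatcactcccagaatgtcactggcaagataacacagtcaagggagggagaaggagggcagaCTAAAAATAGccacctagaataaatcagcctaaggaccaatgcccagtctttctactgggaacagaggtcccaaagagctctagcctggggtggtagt
Asb18: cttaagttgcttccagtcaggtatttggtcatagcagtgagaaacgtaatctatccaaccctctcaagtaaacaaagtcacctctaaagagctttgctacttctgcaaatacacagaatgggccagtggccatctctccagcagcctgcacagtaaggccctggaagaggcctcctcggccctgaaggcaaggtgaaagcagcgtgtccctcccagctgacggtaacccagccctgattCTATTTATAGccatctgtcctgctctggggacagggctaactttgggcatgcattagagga
Kbtbd12: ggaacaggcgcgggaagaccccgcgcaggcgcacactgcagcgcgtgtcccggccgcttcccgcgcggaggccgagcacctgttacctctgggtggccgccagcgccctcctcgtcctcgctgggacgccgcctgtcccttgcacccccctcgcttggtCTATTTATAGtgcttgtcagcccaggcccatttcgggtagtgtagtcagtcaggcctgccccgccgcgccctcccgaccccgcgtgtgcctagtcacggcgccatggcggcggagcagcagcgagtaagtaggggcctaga
They lie at chr2:69669870-69670169 on the plus strand for Klhl41, chrX:95478080-95478379 on the minus strand for Asb12, chr1:90014617-90014916 on the minus strand for Asb18 and chr6:88627380-88627679 on the minus strand for Kbtbd12. The match begins 63 bases before the start of Klhl41, 48 before that of Asb12, 11 before that of Asb18 and 91 before that of Kbtbd12. Klhl31, which fell by a log2 change of -0.82, had no MEF2 match in its window.

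The remaining Kelch proteins were mostly lower too. Of the 16 BTB-Kelch members, 14 were lower and 2 higher, where 58.3% of all listed genes were lower. The 15 tested had a median log2 change of -0.47, which was -0.25 with median-of-ratios scaling and -0.23 without the length trend. Outside the muscle genes, Klhl28 had 1.22, 1.1 and 1.22 in the Noggin-deficient and 2 and 2.16 in the wild type libraries, a difference of -0.70 in log2 (SE 0.081, adjusted p = 0.00011 by limma). Klhl11 was at 2.09, 2.46 and 2.11 in the Noggin-deficient and 3.17 and 3.38 in the wild type libraries (log2 change -0.52), and these were the other lower members of the class that kept their call in every scaling and without the length trend. Klhl13, an adaptor that regulates Aurora B in mitosis, was at 42.8, 42.5 and 43.1 in the Noggin-deficient and 52.9 and 54.9 in the wild type libraries. Its log2 change of -0.33 was -0.06 with median-of-ratios scaling, where the call ended (adjusted p = 0.096). Klhl21, another regulator of Aurora B, was at 11.2, 10.9 and 11 in the Noggin-deficient and 13.3 and 13.1 in the wild type libraries and turned from -0.26 to 0.01 under that scaling. Klhl3, which targets WNK kinases, was at 1.13, 1.28 and 1.06 in the Noggin-deficient and 1.57 and 1.89 in the wild type libraries, and its call at -0.49 ended with median-of-ratios scaling (-0.26, adjusted p = 0.061) and without the length trend (-0.15, adjusted p = 0.21). Klhl5 was at -0.38 and Klhl15 at -0.39 on the log2 scale, and their calls ended with median-of-ratios scaling. Klhl15 also lost its call without wild type replicate 2 (-0.35, adjusted p = 0.076). Kbtbd6 and Kbtbd8, at -0.24 and -0.23, lost theirs when a single library was left out, Kbtbd6 for each of the 5 libraries and Kbtbd8 for each but wild type replicate 1, with changes from -0.28 to -0.14. Klhl36 rose, with 3.13, 3.61 and 3.01 in the Noggin-deficient and 2.26 and 2.6 in the wild type libraries and a difference of 0.38 in log2 (SE 0.093, adjusted p = 0.0046 by limma). Klhl35, too low to test, was at 0.37, 0.22 and 0.26 in the Noggin-deficient and 0.1 and 0.18 in the wild type libraries.

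TRIM genes went both ways. Of the 16, Trim55 and Trim72 included, 10 were lower and 6 higher. Among the 11 tested 7 fell and 4 rose, where 60.1% of all tested genes were called lower and 37.9% higher. The class median was -0.30, or -0.04 with median-of-ratios scaling and -0.11 without the length trend. Trim29, a TRIM protein of squamous epithelium, had the largest fall. It was at 26, 24.9 and 25.4 in the Noggin-deficient libraries and at 59.3 and 58.5 in the wild type libraries. That is a difference of -1.20 in log2 (SE 0.029, adjusted p = 7.1e-08 by limma, and 2.3e-06 against a 1.5-fold change). Epidermis markers were lower in the same libraries: of 20, 18 had values and all 18 were lower, with a summed level from 1478 to 1539 in the Noggin-deficient and from 3578 to 3582 in the wild type libraries and none listed at 0. Their part in the value of Trim29 was not tested.

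Trim65 fell from 1.99 and 1.82 in the wild type to 1.2, 1.15 and 1.2 in the Noggin-deficient libraries (log2 change -0.59). Trim35 was at 48.8, 46.2 and 47.8 in the Noggin-deficient and 58.6 and 60 in the wild type libraries, a log2 change of -0.32 that was -0.04 with median-of-ratios scaling (adjusted p = 0.25). Trim2, a ligase for neurofilament in neurons, was at 4.23, 4.19 and 4.15 in the Noggin-deficient and 5.57 and 5.69 in the wild type libraries, and its -0.41 became -0.06 without the length trend (adjusted p = 0.26). Trim23, at -0.30, lost its call with both scalings and without that trend. Of the rises, Trim46, which organises microtubules at the start of the axon, had 1.21, 1.2 and 1.31 in the Noggin-deficient and 0.84 and 0.84 in the wild type libraries (log2 change 0.45, SE 0.083, limma adjusted p = 0.0012). Trim17 had 0.99, 0.94 and 0.99 in the Noggin-deficient and 0.69 and 0.71 in the wild type libraries (log2 change 0.36), Trim68 3.84, 3.47 and 3.38 in the Noggin-deficient and 2.74 and 2.78 in the wild type libraries (log2 change 0.34) and Trim45 2.41, 2.09 and 2.27 in the Noggin-deficient and 1.71 and 1.77 in the wild type libraries (log2 change 0.33). These 4 kept their call and sign with both scalings and without the length trend. Of the 5 too low to test, Trim58, a ligase of late red cell development, was at 0.11, 0.18 and 0.19 in the Noggin-deficient and 0.05 and 0.06 in the wild type libraries. Erythroid markers were higher in the same libraries, all 8 with values of 19, summing to 222.3 to 228.9 in the Noggin-deficient and 96 to 100.2 in the wild type libraries with none listed at 0, and their part in the value of Trim58 was not tested. Trim67, a neuronal TRIM, was at 0.21, 0.17 and 0.21 in the Noggin-deficient and 0.1 and 0.06 in the wild type libraries and its relative Trim9 at 0.23, 0.2 and 0.25 in the Noggin-deficient and 0.4 and 0.39 in the wild type libraries, in opposite directions. Trim30, which has near-identical neighbours whose reads could be split by the counting, and Trim66 were at 0.08 or below in every library.

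F-box genes were the ligase receptors in which rises were most frequent. Of 9 with values 5 were higher and 4 lower. Of the 7 tested 4 rose and 3 fell, where 37.9% of all tested genes were called higher and 60.1% lower. The median log2 change of those 7 was 0.37, but it turned to -0.24 when a value of at least 2 was required, which only 3 F-box genes met. The class had a median transcript length of 2117 bases, against 3438 for all listed genes with a length. Fbxo27, Fbxo44 and Fbxo2 belong to a subgroup of related proteins, some of which bind sugar chains on glycoproteins, and all 3 were higher. Fbxo2 and Fbxo44 start next to each other on chromosome 4, on opposite strands. Fbxo27 was at 1.82, 1.58 and 1.92 in the Noggin-deficient and 1.08 and 1.09 in the wild type libraries (log2 change 0.60, SE 0.093, limma adjusted p = 0.0005). Fbxo44 was at 0.81, 0.93 and 0.97 in the Noggin-deficient and 0.54 and 0.65 in the wild type libraries (log2 change 0.45), and Fbxo2, too low to test, at 0.57, 0.42 and 0.3 in the Noggin-deficient and 0.27 and 0.12 in the wild type libraries. Fbxl19, which binds unmethylated CpG islands, was at 21.7, 21.1 and 22.1 in the Noggin-deficient and 17.3 and 16 in the wild type libraries. All Noggin-deficient libraries lay above the wild type ones (log2 change 0.37, SE 0.04, limma adjusted p = 7.6e-05). Fbxl8 had 1.95, 1.62 and 1.91 in the Noggin-deficient and 1.39 and 1.21 in the wild type libraries (log2 change 0.42). The rises of Fbxo27, Fbxo44, Fbxl19 and Fbxl8 kept their call with both scalings and without the length trend. Fbxo28 was at 6.06, 6.09 and 6.08 in the Noggin-deficient and 7.25 and 7.19 in the wild type libraries, and its -0.24 became 0.02 with median-of-ratios scaling (adjusted p = 0.63) and 0.00 without the length trend (adjusted p = 0.95). Fbxo48 was at 0.69, 0.59 and 0.49 in the Noggin-deficient and 0.83 and 0.77 in the wild type libraries. Its call at -0.33 (adjusted p = 0.032) ended with median-of-ratios scaling (-0.13, adjusted p = 0.4) and without Noggin-deficient replicate 2 (-0.33, adjusted p = 0.059), Noggin-deficient replicate 3 (-0.24, adjusted p = 0.077), wild type replicate 1 (-0.29, adjusted p = 0.15) or wild type replicate 2 (-0.37, adjusted p = 0.078).

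HECT ligases were all lower, by small amounts, and they are encoded by long transcripts. All 9 had lower values in the Noggin-deficient libraries, where 58.3% of all listed genes were lower. The 8 tested were all called, as were 98% of all tested genes. The median log2 change of the 8 was -0.36, against -0.28 for all tested genes. The median transcript length of the class was 9012 bases, and with the length trend removed the median of the 8 turned to 0.02. That step also removes the overall shift, and the median of all tested genes then was -0.02. With median-of-ratios scaling, which does not use length, the 2 medians were -0.10 and -0.03. Huwe1, a very large ligase whose substrates include MyoD and Myc, was at 7.27, 7.21 and 7.57 in the Noggin-deficient and 10.6 and 10.3 in the wild type libraries. The groups lay apart by -0.50 (SE 0.040, limma adjusted p = 1.7e-05), but for a transcript of 14579 bases this was -0.02 without the length trend (adjusted p = 0.57). Herc3 was at 2.25, 1.97 and 2.24 in the Noggin-deficient and 3.06 and 3.27 in the wild type libraries, a difference of -0.51 in log2 (SE 0.077, adjusted p = 0.00042 by limma) that stayed at -0.28 without the trend, and it was the HECT gene whose call held in each of these settings. Herc2, a scaffold of the DNA damage response, was at 1.93, 1.92 and 2.11 in the Noggin-deficient and 2.72 and 2.64 in the wild type libraries. It turned from -0.39 to 0.09 without the length trend and lost its call with median-of-ratios scaling (-0.14, adjusted p = 0.1).

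Itch and Wwp1 belong to the Nedd4 family, whose members act on receptors and SMAD proteins of the BMP and TGF-beta pathways or on Notch. Itch was at 8.17, 8.09 and 8.34 in the Noggin-deficient and 10 and 9.71 in the wild type libraries. Its log2 change of -0.26 became 0.00 both with median-of-ratios scaling and without the length trend (adjusted p = 0.92 in each). Wwp1 was at 7.12, 6.82 and 7.31 in the Noggin-deficient and 8.42 and 8.75 in the wild type libraries, and its -0.27 was -0.00 with median-of-ratios scaling (adjusted p = 0.94) and 0.04 without the length trend (adjusted p = 0.39). Neither gene therefore has a direction that holds across the settings. Smurf1, Smurf2, Nedd4, Nedd4l and Wwp2 of this family were not analysed here. Ube3a, the ligase lost in Angelman syndrome, had 6.1, 6.19 and 6.1 in the Noggin-deficient and 7.14 and 7.39 in the wild type libraries and was the member that was called in the opposite direction, at 0.17 (adjusted p = 0.004), once the length trend was removed, against -0.24 as deposited. Hectd2, too low to test, was at 0.23, 0.27 and 0.26 in the Noggin-deficient and 0.47 and 0.53 in the wild type libraries.

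The U-box ligases Ube4a and Ube4b, which lengthen ubiquitin chains, were at -0.30 and -0.27, at 0.00 and 0.01 without the length trend, and at -0.03 and 0.00 with median-of-ratios scaling. Ube4b had 14.1, 14.4 and 14.2 in the Noggin-deficient and 17.7 and 16.6 in the wild type libraries, and Ube4a 7.52, 7.17 and 7.31 in the Noggin-deficient and 9.03 and 9.1 in the wild type libraries. Both genes had their groups apart as deposited, and neither kept its call with median-of-ratios scaling or without the length trend. Ubr3, of the family that recognises destabilising N-terminal residues, had 9.64, 9.34 and 9.54 in the Noggin-deficient and 13.4 and 12.9 in the wild type libraries. It kept its lower call in each setting, with a difference of -0.45 in log2 (SE 0.036, adjusted p = 1.6e-05 by limma) and of -0.09 without the length trend.

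RING ligases made the largest class, with 16 of 18 lower. The 16 tested had 15 falls and 1 rise, where 60.1% of all tested genes were called lower and 37.9% higher. The class median was -0.36 (with median-of-ratios scaling -0.10, and -0.16 without the length trend). Rnf225, counted in it, entered the test only through the wild type libraries. Rnf222 fell furthest, from 1.62 and 1.69 in the wild type to 0.56, 0.52 and 0.58 in the Noggin-deficient libraries (log2 change -1.25, SE 0.088, limma adjusted p = 9.6e-06, and adjusted p = 0.00072 against a 1.5-fold change). The epidermis markers given beside Trim29 were lower in the same libraries, and their part in the value of Rnf222 was not tested. Rnf208 went from 6.51 and 5.85 to 4.27, 4.58 and 4.28 (log2 change -0.47). Rnf111, or Arkadia, promotes BMP and TGF-beta signalling by degrading the inhibitors SKI, SnoN and Smad7. It was at 1.74, 1.72 and 1.87 in the Noggin-deficient and 2.47 and 2.49 in the wild type libraries. Its fall of -0.43 (SE 0.068, limma adjusted p = 0.00055) stayed called with median-of-ratios scaling and without the length trend, at -0.19 and -0.19. Rnf222, Rnf208 and Rnf111 were the 3 RING genes whose lower call held in each of these settings.

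Rnf11, a partner of Nedd4-family ligases, was at 11, 10.7 and 11.1 in the Noggin-deficient and 14.1 and 14 in the wild type libraries, and its -0.35 was -0.09 with median-of-ratios scaling (adjusted p = 0.052). Rnf44 had 17.8, 17.7 and 17.3 in the Noggin-deficient and 22.7 and 22.1 in the wild type libraries, a log2 change of -0.34 that was -0.08 there (adjusted p = 0.054). Rnf213, a giant ligase with a transcript of 16716 bases, was at 0.73, 0.91 and 0.94 in the Noggin-deficient and 1.79 and 1.1 in the wild type libraries. The wild type libraries differed from each other by more than the lower of them differed from the Noggin-deficient ones. Its call at -0.58 (adjusted p = 0.013) ended without wild type replicate 1 (-0.29, adjusted p = 0.11), with median-of-ratios scaling (-0.36, adjusted p = 0.1) and without the length trend (-0.10, adjusted p = 0.62). Rnf217 was at 9.64, 9.82 and 9.82 in the Noggin-deficient and 12.8 and 12.6 in the wild type libraries and turned from -0.37 to 0.06 without that trend. Rnf24 (log2 change -0.38), Rnf144b (-0.35), a ligase induced by p53, Rnf39 (-0.43), Rnf225 (-0.40) and Rnf125 (-0.32) lost their calls with median-of-ratios scaling. Without 1 wild type library Rnf39 (-0.33, adjusted p = 0.14, without replicate 1) and Rnf125 (-0.26, adjusted p = 0.094, without replicate 2) lost theirs as well. Rnf128, Rnf139 and Rnf152 were at -0.25, -0.23 and -0.25, and at 0.00, 0.03 and -0.05 under that scaling. Rnf139 lost its call without wild type replicate 2 (-0.18, adjusted p = 0.059), and Rnf152 lost its call for each library left out but Noggin-deficient replicate 1 (changes from -0.27 to -0.18). Rnf8, which marks chromatin at DNA breaks, rose. It was at 2.35, 2.04 and 2.54 in the Noggin-deficient and 1.44 and 1.89 in the wild type libraries (log2 change 0.42, adjusted p = 0.011), with a call that ended without wild type replicate 1 (0.25, adjusted p = 0.086). Rnf112, at 0.46, 0.52 and 0.47 in the Noggin-deficient and 0.26 and 0.32 in the wild type libraries, and Rnf224, at 0.06, 0.14 and 0.04 in the Noggin-deficient and 0.28 and 0.26 in the wild type libraries, were too low to test.

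Deubiquitinases were lower in the main. Of 16 with values 14 were lower and 2 higher. The 15 tested had 13 falls and 2 rises, where 60.1% of all tested genes were called lower and 37.9% higher. The class median was -0.37 (with median-of-ratios scaling -0.11, and -0.10 without the length trend). Usp2, whose transcript cycles with the circadian clock, was at 7.55, 7.79 and 7.39 in the Noggin-deficient and at 14 and 13.3 in the wild type libraries. That was the largest fall of the class (log2 change -0.82, SE 0.041, limma adjusted p = 1.8e-06, and adjusted p = 0.0029 against a 1.5-fold change), and it was -0.56 and -0.66 in the other settings. Usp31 was at 2.54, 2.63 and 2.54 in the Noggin-deficient and 4.13 and 4.12 in the wild type libraries (log2 change -0.63). Otud1, of the ovarian tumour family, was at 2.42, 2.28 and 2.19 in the Noggin-deficient and 3.28 and 3.44 in the wild type libraries (log2 change -0.50). Usp25, which has a long isoform made in muscle, was at 8.44, 8.65 and 9.23 in the Noggin-deficient and 12.3 and 12.6 in the wild type libraries (log2 change -0.50, SE 0.046, limma adjusted p = 3.3e-05), and Usp13 at 4.84, 4.43 and 4.46 in the Noggin-deficient and 6.59 and 6.59 in the wild type libraries (log2 change -0.50). These 5 kept their lower calls with both scalings and without the length trend.

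The other falls among the deubiquitinases were smaller and depended on the setting. Usp28, which stabilises Myc, had 11.7, 11.3 and 12 in the Noggin-deficient and 14.3 and 15 in the wild type libraries, and its -0.33 became -0.06 with median-of-ratios scaling (adjusted p = 0.24). Usp34, a very large enzyme that acts on axin, had 6.73, 6.71 and 6.41 in the Noggin-deficient and 8.88 and 8.67 in the wild type libraries and went from -0.40 to 0.05 without the length trend. Otud4 went from -0.37 to -0.03 (adjusted p = 0.43) in that setting. Usp7, which stabilises Mdm2, had 8.65, 8.65 and 7.98 in the Noggin-deficient and 9.79 and 10.3 in the wild type libraries and went from -0.25 to 0.02 with median-of-ratios scaling. Usp20, Usp32 and Usp46, at -0.28, -0.26 and -0.36, were at -0.01, -0.01 and -0.09 in that setting, with no call. Usp53 was at -0.41, and its call ended with both scalings and without wild type replicate 1 (-0.31, adjusted p = 0.084). Usp35 rose, with 1.32, 1.37 and 1.47 in the Noggin-deficient and 0.91 and 1.02 in the wild type libraries (log2 change 0.43, SE 0.087, limma adjusted p = 0.002), and kept its call in each setting. Usp18, which removes the ubiquitin-like protein ISG15 from its targets, was at 0.67, 0.87 and 0.51 in the Noggin-deficient and 0.37 and 0.46 in the wild type libraries and entered the test only through the Noggin-deficient libraries. Its call at 0.47 (adjusted p = 0.026) ended without Noggin-deficient replicate 1 (0.48, adjusted p = 0.057), without Noggin-deficient replicate 2 (0.33, adjusted p = 0.059), without wild type replicate 1 (0.38, adjusted p = 0.14) and without the length trend (0.38, adjusted p = 0.067). Usp26 was at 0.06 or below in every library. Usp4, Usp9x, Usp11 and Usp15, which act on the TGF-beta and BMP pathways, were not analysed here.

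Few conjugating enzymes and proteasome subunits had values. Psmb9 and Psmb10 are catalytic subunits that replace the constitutive ones in the immunoproteasome, and both rose. Psmb9 was at 1.82, 1.68 and 1.86 in the Noggin-deficient and 1.16 and 1.19 in the wild type libraries (log2 change 0.51, SE 0.077, limma adjusted p = 0.00041). Psmb10 was at 9.57, 10.1 and 9.91 in the Noggin-deficient and 6.38 and 7.83 in the wild type libraries (log2 change 0.47, SE 0.078, limma adjusted p = 0.00075), with the wild type libraries further apart than the Noggin-deficient ones. Both calls held with both scalings and without the length trend. Of the E2 enzymes, Ube2t, which serves the Fanconi anaemia pathway of DNA repair, rose to 6.57, 5.88 and 6.79 from 4.66 and 4.99 (log2 change 0.39). Ube2ql1 was at 1.45, 1.31 and 1.71 in the Noggin-deficient and 1.11 and 0.82 in the wild type libraries, and its call at 0.52 ended without wild type replicate 2 (0.35, adjusted p = 0.055). Ube2d3, a conjugating enzyme used by many RING ligases, was at 0.83, 0.85 and 0.72 in the Noggin-deficient and 1.07 and 1.04 in the wild type libraries. It shares much of its coding sequence with Ube2d1 and Ube2d2, and the sources used here do not say how reads were divided between such genes. Its call at -0.32 ended with median-of-ratios scaling (-0.10, adjusted p = 0.39), without wild type replicate 1 (-0.30, adjusted p = 0.071) and without wild type replicate 2 (-0.33, adjusted p = 0.051), and it turned to 0.19 without the length trend. Cullins, Fbxw7 and the subunits of the proteasome cap were not analysed here.

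The symbol pattern also took 4 genes that are neither ligases, deubiquitinases nor subunits. Psmc3ip, a factor of meiotic recombination named for its binding to a proteasome subunit, was at 8.9, 10.1 and 8.84 in the Noggin-deficient and 6.5 and 7.74 in the wild type libraries (log2 change 0.37). Usp6nl, a GTPase-activating protein for Rab5, was at 4.59, 4.53 and 4.51 in the Noggin-deficient and 6.38 and 6.34 in the wild type libraries (log2 change -0.46). Usp52, now called Pan2, is the scaffold of a deadenylase, and was at 0.89, 1.01 and 0.75 in the Noggin-deficient and 0.71 and 0.59 in the wild type libraries. Its call at 0.33 (adjusted p = 0.034) ended without Noggin-deficient replicate 1 (0.32, adjusted p = 0.072), without Noggin-deficient replicate 2 (0.25, adjusted p = 0.091) and without wild type replicate 2 (0.23, adjusted p = 0.2). Fbxl12os, a transcript antisense to Fbxl12 and too low to test, was at 0.36, 0.41 and 0.54 in the Noggin-deficient and 0.22 and 0.26 in the wild type libraries. The kit marks strand, but the sources used here do not say whether the counting used it.

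Beyond the symbol pattern, 46 of 237 other genes of the ubiquitin system had values, and their direction depended on the processing. Of the 46, all tested, 35 fell, 10 rose and 1, Mgrn1, was not called, where 60.1% of all tested genes were called lower and 37.9% higher. Without the length trend 25 of the 46 were higher and 21 lower. As deposited their log2 changes ran from -0.82 to 0.89 with a median of -0.29. It became -0.02 after median-of-ratios scaling and 0.01 without the length trend. The median of all tested genes likewise went from -0.28 to -0.03 and -0.02. Ubiquitin itself was represented by Rps27a, which encodes a ubiquitin fused to a ribosomal protein, at 841, 804 and 832 in the Noggin-deficient and 619 and 663 in the wild type libraries (log2 change 0.36). Of 2 activating enzymes, Uba7, specific for ISG15, rose by 0.48 and Uba6 had -0.34. Among 7 cullin partners 1 rose and 6 fell. Among 27 other ligases 4 rose and 22 fell. Dtx3, a Deltex ligase, had 37.8, 38.7 and 38.3 in the Noggin-deficient and 28.9 and 28.1 in the wild type libraries (log2 change 0.42), and Cbl, which down-regulates receptor tyrosine kinases, had 2.19, 2.48 and 2.58 in the Noggin-deficient and 4.7 and 4.19 in the wild type libraries (log2 change -0.82). Among 4 other deubiquitinases 1 rose, Uchl1, which is abundant in neurons, from 16 and 15.6 to 25.8, 23.6 and 25.7 (log2 change 0.65), and 3 fell. Of 3 proteasome activators and shuttles, Psme1 rose by 0.40, and Ubqln1 and Ddi2 fell, with -0.28 and -0.32. Birc6, a giant conjugating enzyme, was at -0.34 as deposited and at 0.14 without the length trend.

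The class medians moved with the setting to different degrees. The medians of the ASB, BTB-Kelch, RING and TRIM genes, the deubiquitinases and the muscle-enriched genes lay below those of all genes in each of the 3 settings drawn. For TRIM with median-of-ratios scaling this was -0.04 against -0.03. The ASB and muscle-enriched medians count Asb12 and Asb18, and the RING median Rnf225, which entered the test only through the wild type libraries. Usp18, in that of the deubiquitinases, entered only through the Noggin-deficient ones. The HECT median turned in sign without the length trend, to 0.02, where that of all tested genes was -0.02. The F-box median was above 0 in these 3 settings.

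**Figure D5:**
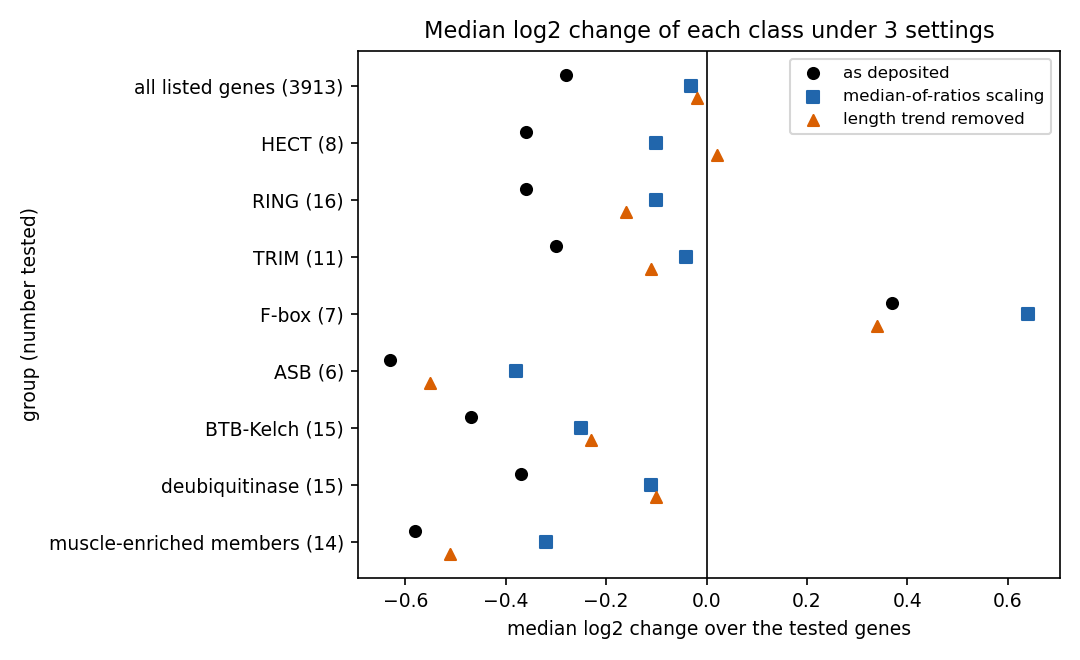
Median log2 change (horizontal axis) over the tested genes of each class with at least 5 tested members, of the muscle-enriched members and of all listed genes, as deposited (black circles), with median-of-ratios scaling (blue squares) and with the length trend removed (orange triangles). The muscle-enriched medians lie at -0.58, -0.32 and -0.51, and those of the HECT ligases at -0.36, -0.10 and 0.02. Those of all tested genes are -0.28, -0.03 and -0.02. Asb12 and Asb18, counted in the ASB and muscle-enriched medians, entered the test only through the wild type libraries.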

How the data were processed

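Gene expression was measured by RNA sequencing in forelimb muscle from 3 samples deficient in Noggin and 2 wild type samples (genotype from the labels). Libraries were made with a stranded mRNA kit, per the labels' protocols. STAR 2.4.2a, DESeq2 and the build mm9 appear in the submitters' processing notes, with no role for any. The deposited values are a normalised signal of the authors, with decimals; the sources used here give neither its unit nor the counter nor the gene selection, and depth is unknown. Members were matched by symbol, and the members, lists and tests were chosen with earlier results of these data known. From the table of 4743 genes, those whose value reached 0.5 in 2 or more libraries entered limma 3.58.1 (R 4.3.3), with an intensity trend on log2(value + 0.25) and no covariate. Benjamini-Hochberg adjustment covered all 3913 genes tested, at a threshold of 0.05. This pseudocount of 0.25 makes the log2 changes of low genes too small. Medians by class are descriptions, and no set test was run. Transcript length was that of the longest GENCODE vM21 transcript (all 104 members had one), and its trend was removed by loess at a span of 0.5, which also removes the overall shift. Genes were named by a rule: the 3 largest rises and falls called in each class, the member with the highest mean of each class, the muscle-enriched list and a list of pathway regulators; others were added as examples after their values were seen, and a few named by the rule are not reported here. Alternatives covered pseudocount, filter, scaling, length trend, intensity trend, replicate block, a 1.5-fold threshold and leaving out each library.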

Additional observations from a re-analysis of the deposited data

How the results depend on the processing

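Of all listed genes 3836 were called, and 569 against a 1.5-fold change. Of the members 89 were called, but 58 under a filter of 2, 48 with median-of-ratios scaling, 59 without the length trend and 5 against a 1.5-fold change. The 18 members called higher were 8 under the filter of 2 and 0 against a 1.5-fold change. The 71 called lower were 30 with median-of-ratios and 45 with upper-quartile scaling, 41 without the length trend and 5 against a 1.5-fold change. Pathway genes called went from 45 to 21, 29, 24 and 0 with median-of-ratios factors, upper-quartile factors, length removal and the 1.5-fold threshold.
Class medians, in log2, were as follows. With a pseudocount of 1, HECT was -0.31, RING -0.31, F-box 0.25, ASB -0.38, BTB-Kelch -0.33, deubiquitinases -0.34 and muscle-enriched genes -0.47; with 0.05, BTB-Kelch was -0.53. With no filter, HECT was -0.39 and TRIM -0.23; with the filter of 2, F-box turned to -0.24, ASB was -0.48 and BTB-Kelch -0.52. In the order HECT, RING, TRIM, F-box, ASB, BTB-Kelch, deubiquitinases and muscle-enriched genes, median-of-ratios scaling gave -0.10, -0.10, -0.04, 0.64, -0.38, -0.25, -0.11 and -0.32, and upper-quartile scaling -0.16, -0.16, -0.11, 0.57, -0.44, -0.31, -0.17 and -0.38. Without the length trend, HECT turned to 0.02, and RING was -0.16, TRIM -0.11, BTB-Kelch -0.23, deubiquitinases -0.10 and muscle-enriched genes -0.51. Leaving out each library in turn gave -0.37 to -0.35 for RING, -0.33 to -0.29 for TRIM, -0.69 to -0.44 for ASB, -0.48 to -0.37 for BTB-Kelch and -0.59 to -0.54 for muscle-enriched genes, and 75 to 85 members called. Without a wild type library, the lone one left is assumed to vary like the Noggin-deficient ones.
The replicate numbers in the titles tie no samples to a shared animal or litter. Deviations of same-numbered libraries had correlations of -0.126 and -0.062 across genes. With the replicate block, 84 members were called, the BTB-Kelch median was -0.42, and of the named members Ube2d3 (-0.26, adjusted p = 0.056) and Fbxo48 (-0.24, adjusted p = 0.094) lost their calls. Without the length trend 14 members turned in sign, among them Ube2d3 (0.19), Ube3a (0.17, called), Rnf152 (0.12), Herc2 (0.09), Usp32 (0.07), Rnf217 (0.06), Usp34 (0.05), Wwp1 (0.04), Ube4b (0.01), and Fbxo28, Ube4a, Itch and Kbtbd8 (0.00). With median-of-ratios scaling 8 turned: Ube3a and Rnf139 (0.03), Fbxo28 and Usp7 (0.02), Klhl21 (0.01), and Ube4b, Itch and Rnf128 (0.00). The cause of these differences was not tested, except that fewer genes enter under the stricter filter. Depth is unknown and sets no stated limit.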

Other observations

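Several members and partners that act in the interferon response were higher in the Noggin-deficient libraries. This grouping was made after the values had been seen and carries no test. Markers of other cell types were higher in the same libraries: 16 of 16 hepatocyte markers with values (of 18), summing to 137.2 to 139.4 in the Noggin-deficient and 13.5 to 14.9 in the wild type libraries with 7 listed at 0 in some library (Serpina1a, Serpina1b, Fga, Fgb, Ahsg, Fabp1 and Ambp), and the 8 erythroid markers. Their part in these values was not tested. Isg15, a ubiquitin-like protein, was at 1.64, 1.16 and 2.1 in the Noggin-deficient and 0.73 and 0.76 in the wild type libraries (log2 change 0.89). Its activating enzyme Uba7 and its protease Usp18, the immunoproteasome subunits Psmb9 and Psmb10 and the proteasome activator Psme1 were higher as well, with log2 changes of 0.48, 0.47, 0.51, 0.47 and 0.40. The interferon-induced ligase Rnf213 went the other way, at -0.58. So did Trim30, also induced by interferon, though its values were too low to test. It was at 0.01, 0.01 and 0.02 in the Noggin-deficient and 0.05 and 0.04 in the wild type libraries.

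Of 55 other interferon-induced genes, listed after those values had been seen, 15 had values and were tested. Of these 11 rose, 3 fell (Ifih1, Igtp and Irgm2) and 1 was not called, Rsad2, where 37.9% of all tested genes were called higher and 60.1% lower. Ifit3 and Iigp1, counted among the rises and in the median below, entered the test only through the Noggin-deficient libraries in which they were high, as did Usp18. The median log2 change of the 15 was 0.46, against -0.28 for all tested genes, and it was 0.68 under median-of-ratios scaling and 0.54 without the length trend. Iigp1, an interferon-induced GTPase, was at 1.19, 1.2 and 1.42 in the Noggin-deficient and 0.45 and 0.31 in the wild type libraries, Ifitm1, a membrane protein that restricts viruses, at 7.14, 7.42 and 6.97 in the Noggin-deficient and 4.57 and 4.19 in the wild type libraries, and Igtp, another GTPase of the family, at 5.96, 5.61 and 5.81 in the Noggin-deficient and 7.98 and 8.52 in the wild type libraries. Bst2, or tetherin, was at 21.1, 20.7 and 20.4 in the Noggin-deficient and 15.9 and 15.3 in the wild type libraries.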
